A study of Drosophila melanogaster with 2 samples.

Results

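Regions bound by a GFP-tagged her protein were examined at 10 Polycomb group genes of *Drosophila melanogaster*, out of 13945 protein-coding genes on the main chromosome arms. The 10 genes were taken by name, with earlier results of these data known: *ph-p*, *ph-d*, *Pc*, *Psc*, *Su(z)2*, *Sce*, *E(z)*, *esc*, *pho* and *Sfmbt*. A bound region was counted for a gene when its summit, the position of highest enrichment, lay in the gene body or within 1 kb of any annotated transcription start site (TSS) of the gene. Thresholded regions were those in the authors' list cut by the irreproducible discovery rate (IDR), a measure of agreement between replicates. Single regions in that list can still differ in rank between the replicates. Thresholded regions were found at 8 of the 10 genes. *Sce* and *pho* had none. The strongest lay inside *ph-p* and was rank 65 of 3930 regions in the genome, and none of the other 9 genes had a region stronger than that of *Sfmbt* at rank 1150.

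The embryos were whole, of both sexes, 0 to 24 hours old, and came from a stable transgenic fly line of the her-GFP strain in which GFP was fused to the C-terminus of *her*, a zinc-finger gene of the sex determination pathway. Chromatin was precipitated with an antibody against GFP in 2 biological replicates, which formed 1 group and were called against the same control. An untagged line was not analysed here, and embryos of all stages and cell types were pooled, so the cells in which a region was bound cannot be told apart. Each region carries the authors' signal value, whose scale is not stated, and was ranked by it within its list, rank 1 being the strongest. Besides the thresholded list, relaxed lists of 30000 regions each were used for replicate 1, replicate 2 and both pooled; signals of the thresholded list equal those of the pooled list. The sources used here do not state the read depth.

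Polycomb group proteins keep developmental genes silent, above all the homeotic genes, through cell divisions. Polycomb repressive complex 2 (PRC2) methylates histone H3, Polycomb repressive complex 1 (PRC1) binds that mark, ubiquitylates histone H2A and compacts chromatin, and the Pho repressive complex (PhoRC) brings them to DNA elements called Polycomb response elements. In fly embryos these proteins are supplied by the mother and are also made by the embryo.

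The sequences under the summits of 5 bound genes show what was recovered at the strongest *ph-p* region, at its intronic region, at its tandem neighbour *ph-d*, and at the starts of *Pc*, *esc* and *Sfmbt*. Each is the longest stretch of the 101 bases around the summit that lies outside annotated untranslated regions, read from the RefSeq assembly of Release 6 (dm6) and written 5′ to 3′ on the minus strand, on which all of these genes are transcribed. Capitals mark matches to the searched motifs on either strand. The strongest *ph-p* stretch, at chrX:2137296-2137396, and the *ph-d* stretch, at chrX:2123989-2124089, held no match. The intronic *ph-p* stretch, at chrX:2135371-2135471, held the E box CAGCTG. The *Pc* stretch, at chr3L:21318021-21318115, held TATCG, the reverse complement of the BEAF-32 motif CGATA. No match was found in the *esc* stretch, at chr2L:11829406-11829497, or in the *Sfmbt* stretch, at chr2L:13176786-13176878.
ph-p strongest: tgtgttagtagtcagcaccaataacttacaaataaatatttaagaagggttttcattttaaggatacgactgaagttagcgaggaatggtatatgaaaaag
ph-p intron: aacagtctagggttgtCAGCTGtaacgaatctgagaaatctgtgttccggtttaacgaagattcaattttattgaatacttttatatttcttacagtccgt
ph-d: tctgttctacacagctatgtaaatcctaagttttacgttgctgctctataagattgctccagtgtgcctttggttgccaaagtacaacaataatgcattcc
Pc: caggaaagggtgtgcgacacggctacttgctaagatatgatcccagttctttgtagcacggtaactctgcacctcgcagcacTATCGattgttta
esc: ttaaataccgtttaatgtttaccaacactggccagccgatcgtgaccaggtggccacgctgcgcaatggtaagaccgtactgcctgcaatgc
Sfmbt: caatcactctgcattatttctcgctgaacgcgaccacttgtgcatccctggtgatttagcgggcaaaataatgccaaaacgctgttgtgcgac

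By complex, and among the 10 genes only, thresholded regions were found at 5 of 6 PRC1 genes, both PRC2 genes and 1 of 2 PhoRC genes. The 8 of 10 genes compare with 25.2% of all protein-coding genes under the same rule. The Polycomb genes are long, with a median of 8360 bp against 2166 bp for all protein-coding genes. Among the 7431 genes within the same range of lengths, 1599 to 14998 bp, 28.7% had a thresholded region. This range bounds the lengths but does not match them to those of the 10 genes, so length was not controlled. When only summits within 1 kb of a TSS counted, the same 8 genes were found, against 23.3% of all protein-coding genes. Because the 10 genes were chosen with earlier results of these data known, these shares only describe the lists. No test over genes was made.

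The strongest signal per bound Polycomb gene lay within the usual range of bound genes, with *ph-p* towards its upper end. Its median was 163 over the 8 bound genes and 153 over all 3512 bound protein-coding genes. Ordered by that signal among the 3512, *ph-p* stood at place 90, *Sfmbt* at 1289, *ph-d* at 1343, *Psc* at 1520, *Su(z)2* at 1683, *esc* at 2267, *Pc* at 3202 and *E(z)* at 3444. Of the 13 thresholded regions at Polycomb genes, 7 had a signal above the median of the whole list. The median of the 13 was 147, against 138 for all thresholded regions, which ran from 90.8 to 9479. The weakest bound Polycomb gene, *E(z)*, thus lay close to the lowest signal of the list.

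**Figure D1:**
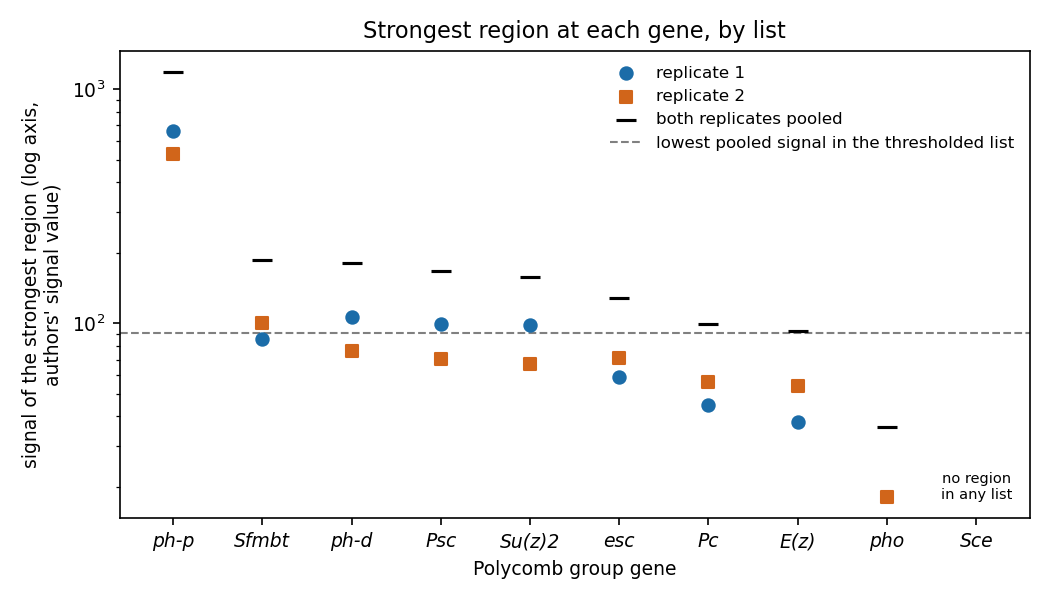
Signal (log axis) of the strongest region at each of the 10 Polycomb group genes, with circles for replicate 1, squares for replicate 2 and bars for both pooled; the dashed line is the lowest pooled signal in the thresholded list, 90.8. *ph-p* stands above the other genes in all 3 lists, *pho* has no region in replicate 1, and *Sce* has none in any list.

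In PRC1, the *polyhomeotic* genes *ph-p* and *ph-d* encode SAM-domain subunits and lie in tandem on X, 2.92 kb apart and both on the minus strand. *ph-p* (FBgn0004861, chrX:2126210-2138371) held 4 thresholded regions, more than any other of the 10 genes, and 1.03% of protein-coding genes held 4 or more. The strongest spanned chrX:2137176-2137591, with its summit at 2137346 inside the gene and 491 bp upstream of an inner TSS. It had a signal of 662.3 in replicate 1, 529.3 in replicate 2 and 1185 pooled. The ranks in the replicates were 58 and 76, so both placed it among their strongest 100 regions. The region at the outermost TSS, with its summit at 2137986, lay 385 bp downstream of that TSS and had 76.57 in replicate 1, 73.21 in replicate 2 and 147.1 pooled.

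The other 2 thresholded *ph-p* regions lay further into the gene. The summit at 2136499, 123 bp downstream of the innermost TSS, had 35.17 in replicate 1, 65.18 in replicate 2 and 92.43 pooled. Its rank was 7235 in replicate 1 and 2006 in replicate 2, a 3.61-fold difference. An intronic summit at 2135421, 1201 bp downstream of the innermost TSS, had 87.72 in replicate 1, 79.48 in replicate 2 and 163.4 pooled. Read along the chromosome, neighbouring summits of the 4 were 1078, 847 and 640 bp apart, so all lay within 2565 bp at the 5′ end of the gene, which holds its 3 TSSs. In the pooled relaxed list *ph-p* held 7 regions, and the strongest below the threshold had a signal of 70.11 at rank 5774.

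*ph-d* (FBgn0004860, chrX:2115727-2123286) held 1 thresholded region, chrX:2123918-2124156, with its summit at 2124039 in the sequence between both genes, 753 bp upstream of its own TSS. The signal was 106.2 in replicate 1, 76.21 in replicate 2 and 181.3 pooled, at ranks 1057, 1503 and 1208. A region at the inner TSS of *ph-d*, with its summit at 2122086, had a pooled signal of 89.98 and fell just short of the list. It was stronger in replicate 2 than in replicate 1 by rank, 2568 against 8122. At the outer TSS a pooled region 67 bp upstream had a signal of 55.65 at rank 8095. The outer start of *ph-d* was thus covered only by regions below the threshold, and its thresholded summit lay outside the gene.

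**Figure D2:**
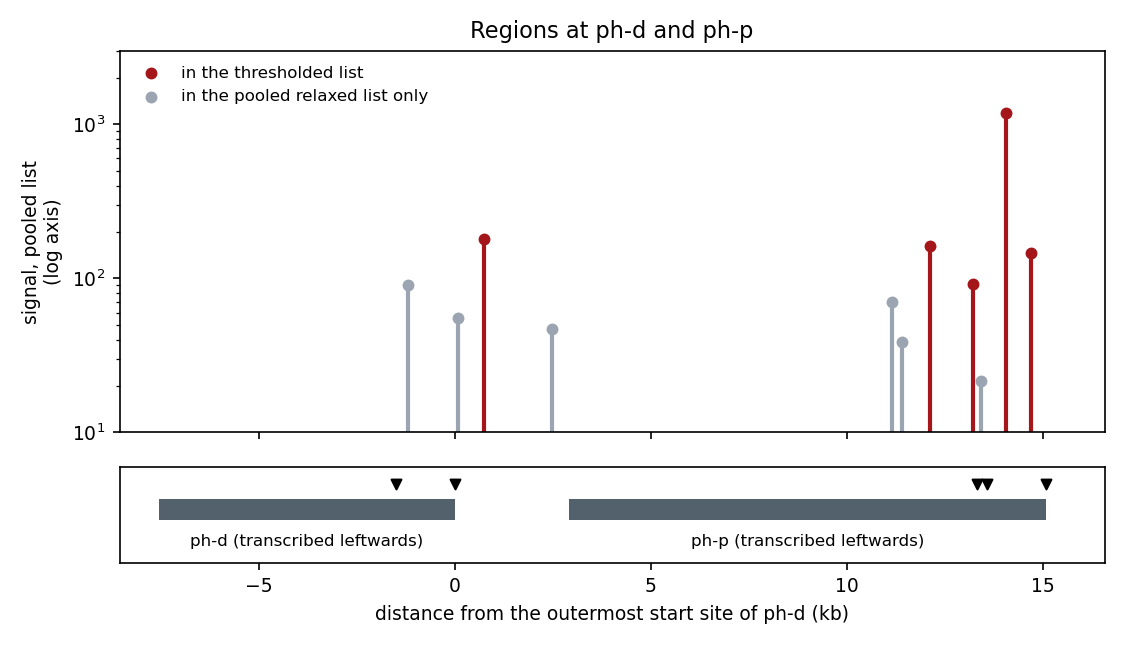
Pooled signal (log axis) of regions at *ph-d* and *ph-p* by distance from the outermost TSS of *ph-d* (kb), with thresholded regions in red, relaxed regions in grey, gene bodies as bars and TSSs as triangles. The region with signal 1185 stands between the TSSs of *ph-p*, and the thresholded region of *ph-d* stands between the genes.

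Because *ph-p* and *ph-d* are near-copies, the sequences were compared to see whether reads could have been placed at either gene. Their longest proteins, of 1589 and 1537 residues, were identical at 1351 of 1513 aligned positions (89.3%). That count of positions is below both lengths, so some residues were left out. The windows from 250 bp upstream to 50 bp downstream of the outermost TSS were identical at 40.3% of 318 aligned positions, gaps included. The protein and DNA percentages are therefore not on the same scale, and no value for unrelated sequence was set beside them. Neither TSS window held any part of a thresholded region of these genes, so the 40.3% does not bear on where reads of those regions were placed. The strongest *ph-p* region aligned with the *ph-d* region at 50.2% identity and with the surroundings of *ph-d* at 56.1% at best. Of its stretches of 36 bases, 367 of 381 (96.3%) occurred once in the genome. Every stretch of 36 bases in each of the other 12 thresholded regions occurred once. The sources used here do not state how reads matching several places were treated.

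*Pc* (FBgn0003042, chr3L:21306138-21318020, minus strand) encodes the chromodomain subunit of PRC1 that binds methylated histone H3. Its thresholded region, chr3L:21317863-21318266, had its summit at 21318065, 45 bp upstream of the TSS. The signal was 44.58 in replicate 1, 56.15 in replicate 2 and 98.88 pooled, at ranks 4994, 2621 and 3460. The same summit lies 709 bp from the TSS of *Rab26*, a small GTPase gene, and 585 bp from that of lncRNA:CR45674, and so counted for these as well. A much stronger summit, with a signal of 724.3, lay 1528 bp beyond the 3′ end of *Pc*, nearest to the TSS of CG11309, and was not counted for *Pc*.

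*Psc* (FBgn0005624, chr2R:12965997-12980994, minus strand) and *Su(z)2* (FBgn0265623, chr2R:12996501-13007911, plus strand) encode related RING-finger proteins that can replace each other in PRC1, and are transcribed away from each other across a gap of 15.5 kb. At *Psc* a promoter region with its summit at 12980922, 72 bp downstream of the outermost TSS, had 99.03 in replicate 1, 70.23 in replicate 2 and 168.0 pooled. A further region lay in an intron, with its summit at 12975480, 5178 bp downstream of the nearest TSS of *Psc*. It had 80.41 in replicate 1, 29.58 in replicate 2 and 110.3 pooled. By rank it was 1804 in replicate 1 and 7480 in replicate 2, a 4.15-fold difference and the widest of the 13 regions.

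*Su(z)2* had a region at each of its TSSs. The summit at 12996537, 36 bp downstream of the outer TSS, had a pooled signal of 158.2 and matched regions of 98.85 in replicate 1 and 44.96 in replicate 2. Replicate 2 held 2 neighbouring regions there, of which the stronger had 67.25 with its summit 108 bp upstream of the TSS. The inner summit at 12997202, 79 bp downstream of its TSS, had 70.37 in replicate 1, 60.62 in replicate 2 and 128.1 pooled, at ranks 2324, 2271 and 2235. In the gap between both genes 1 thresholded region, with its summit at 12985152 and a signal of 190.9, lay 215 bp from the TSS of lncRNA:CR44339. It was 4158 bp from *Psc*, so it counted for neither gene, although its signal exceeded those at both.

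**Figure D3:**
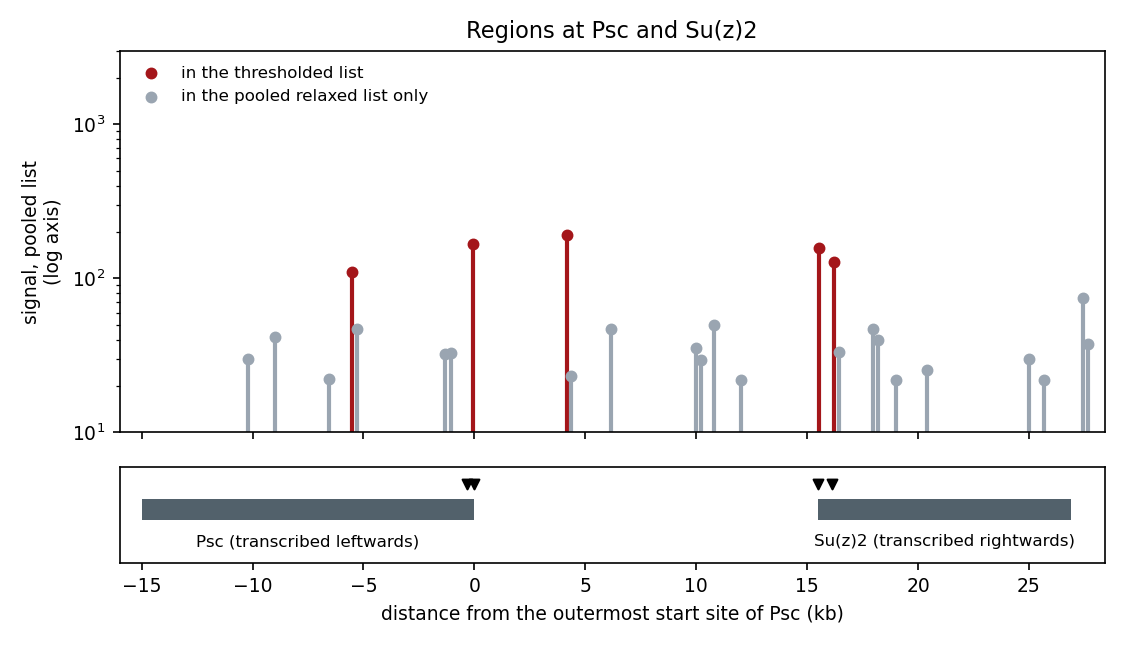
Pooled signal (log axis) of regions at *Psc* and *Su(z)2* by distance from the outermost TSS of *Psc* (kb), with thresholded regions in red, relaxed regions in grey, gene bodies as bars and TSSs as triangles. Of the 5 thresholded regions, 3 stand at TSSs of the 2 genes, 1 in a *Psc* intron and 1 in the gap, among 26 pooled regions in all.

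Several regions per gene were found at 3 of the PRC1 genes. *Psc* and *Su(z)2* held 2 thresholded regions each and *ph-p* 4, so 3 of 10 Polycomb genes had 2 or more. That share compares with 5.8% of all protein-coding genes and with 5.37% of genes in the same range of lengths. In the pooled relaxed list *Su(z)2* held 9 regions, *Psc* 8, *ph-p* 7, and *ph-d*, *Pc* and *Sfmbt* 3 each. *E(z)*, *esc* and *pho* held 1 each. Some of these relaxed regions overlap, such as 12975278-12975681 and 12975480-12975883 at *Psc*, so the numbers do not count separate sites. Numbers of relaxed regions per gene were not taken over all genes.

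*Sce* (FBgn0003330, chr3R:27680431-27682029, minus strand) encodes the RING-finger ubiquitin ligase of PRC1, also called Ring, and is the shortest of the 10 genes at 1599 bp. No region of any list had its summit in the gene or within 1 kb of its TSS. The nearest pooled summit lay 704 bp beyond the 3′ end of the gene, with a signal of 28.02 at rank 21242. In replicate 1 the nearest was 622 bp from the gene with 15.82, and in replicate 2 1387 bp with 14.28. The nearest thresholded summit was 44177 bp away, nearest to the TSS of *Mtl*. *Sce* was therefore the PRC1 gene with no recovered region at its start, within the 30000 regions that each relaxed list holds.

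Both PRC2 genes had 1 thresholded region at the start of the gene. *E(z)* (FBgn0000629, chr3L:10634575-10638130, minus strand) encodes the histone methyltransferase of PRC2. Its region, chr3L:10638044-10638172, had its summit at 10638092, 38 bp downstream of its TSS, and a signal of 37.79 in replicate 1, 54.06 in replicate 2 and 92.5 pooled. The ranks were 6484, 2821 and 3821, so replicate 1 placed it well below replicate 2. *E(z)* forms a divergent pair with *Cnep1r2*, whose TSS was 54 bp from the same summit, and distances this close do not assign the region to either gene.

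*esc* (FBgn0000588, chr2L:11827204-11829405, minus strand) encodes the WD-repeat subunit of PRC2 that binds the methylated histone. Its region, chr2L:11829245-11829648, had its summit at 11829447, 42 bp upstream of the TSS. The signal was 59.19 in replicate 1, 71.19 in replicate 2 and 128.0 pooled, at ranks 3117, 1677 and 2240. *esc* lies inside the much longer phosphodiesterase gene *Pde1c*, and the nearest TSS of *Pde1c* was 7822 bp from the summit. The summit thus counted for both genes and was closer to the start of *esc*.

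Of the PhoRC genes, *Sfmbt* (FBgn0032475, chr2L:13169649-13176785, minus strand) encodes the MBT-repeat protein that pairs with Pho. Its region, chr2L:13176700-13176942, had its summit at 13176828, 43 bp upstream of the TSS. The signal was 86.11 in replicate 1, 100.5 in replicate 2 and 185.6 pooled, at ranks 1598, 897 and 1150. After *ph-p* this was the strongest region of the 10 genes in the pooled list and in replicate 2. The summit also lay in CG43925, 405 bp from its TSS, and 322 bp from the TSS of CG5439, so it counted for 3 genes that overlap or adjoin.

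*pho* (FBgn0002521, chr4:1172469-1181628, minus strand) encodes the zinc-finger protein that binds Polycomb response elements, and had no thresholded region. In replicate 1 no relaxed region counted for it, and the nearest summit was 16060 bp away. Replicate 2 held a region 388 bp upstream of the TSS with a signal of 18.19 at rank 16944. The pooled list held one 306 bp upstream with 36.1 at rank 15066. The nearest thresholded summit was 49123 bp away, at *Dyrk3*, with a signal of 1135. *pho* and *Sce* were the least bound of the 10 genes in every list.

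Most of the 13 regions lay at promoters. Promoters, taken as within 500 bp of a TSS, held 10 of the 13, introns 2 and intergenic sequence 1, against 63.4%, 25.8% and 8.47% of all 3930 regions. The 13 were counted because their summits lay in a gene body or within 1 kb of a TSS of that gene. The 3930 had no such limit, so these shares and the distances below follow in part from the rule. The summit lay within 100 bp of an own TSS for 7 of 13 regions, against 40.6% of all thresholded summits within 100 bp of any TSS. It was upstream of the nearest own TSS in 5 and downstream in the other 8. For all 13 the nearest TSS of any gene belonged to the Polycomb gene itself, and 9 counted for no other gene.

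Taking more or fewer regions from the lists changed how many of the genes were found. Among the strongest 500 and 1000 regions of the pooled list only *ph-p* was found, against 4.26% and 8.23% of all protein-coding genes. The strongest 2000 added *ph-d*, *Psc*, *Su(z)2* and *Sfmbt* for 5 genes, against 14.8%. With 4000 regions 8 genes were found, against 25.5%, and with 8000 the same 8, against 40.2%. The thresholded list holds 3930 regions, and its regions at these genes had the same ranks in the pooled list. The 8 genes at 4000 regions therefore repeat the thresholded result and are no separate finding. *pho* brought the number to 9 with 16000 regions, against 54.3%, and no gene was added with all 30000, against 64.1%. At 500 and 1000 regions the count was the single gene *ph-p*, and nothing about the group is read from it. In the pooled list the gap in percentage points was widest at 4000 regions. In replicate 1 it was widest at 8000 regions, with 8 genes against 39.8%.

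At 4000 regions replicate 2 alone gave the same 8 genes as the pooled list, and replicate 1 gave fewer. The strongest 4000 regions of replicate 1 held 6 of the genes, without *Pc* and *E(z)*, against 25.1% of protein-coding genes. Those of replicate 2 held 8, against 25.8%. All 30000 regions of replicate 1 held 8, against 65.3%, and those of replicate 2 held 9, *pho* included, against 66%. In replicate 1 the strongest regions of *Pc* and *E(z)* had ranks 4994 and 6484, so both genes were absent from its strongest 4000 regions and present among its strongest 8000.

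**Figure D4:**
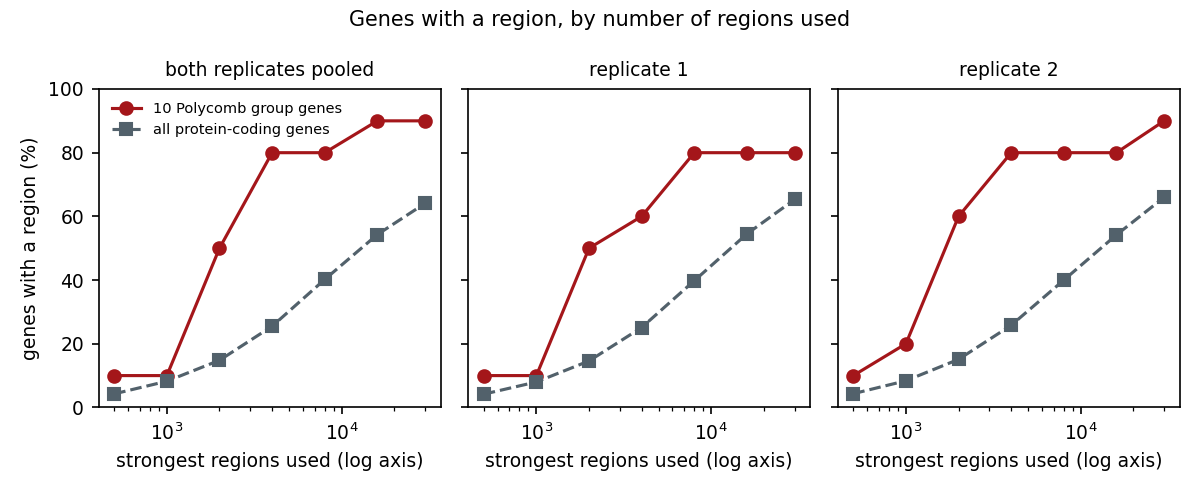
Percent of genes with a region (vertical axis) by the number of strongest regions used (log axis), for both replicates pooled, replicate 1 and replicate 2; red lines are the 10 Polycomb group genes and grey dashed lines all 13945 protein-coding genes. In the pooled list the red line reaches 8 of 10 genes at 4000 regions, where the grey line is at 25.5%.

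The strongest *ph-p* region had ranks 58 and 76 in the replicates, and the inner *Su(z)2* region, the closest of all, differed by 1.02-fold. All 13 regions had a summit within 200 bp in each replicate, as did 3914 of the 3930 thresholded regions, which the authors had selected on these same replicates. The ranks in both replicates differed by a median of 1.78-fold over the 13 regions, up to 4.15-fold, and by 1.39-fold over all thresholded regions. Each match was the nearest summit. The outer *Su(z)2* region was thus paired with rank 3823 in replicate 2, although a neighbour within 200 bp had rank 1892. A median over 13 regions moves with such pairings. By rank 5 were stronger in replicate 1, namely both of *Psc*, the outer one of *Su(z)2*, that of *ph-d* and the strongest of *ph-p*, and 8 in replicate 2. Ordered by their strongest region, *ph-p* came first and *Pc* and *E(z)* last of the 8 bound genes in both replicates. *ph-d*, *Psc* and *Su(z)2* kept this order in both replicates, while *Sfmbt* and *esc* changed places relative to them.

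**Figure D5:**
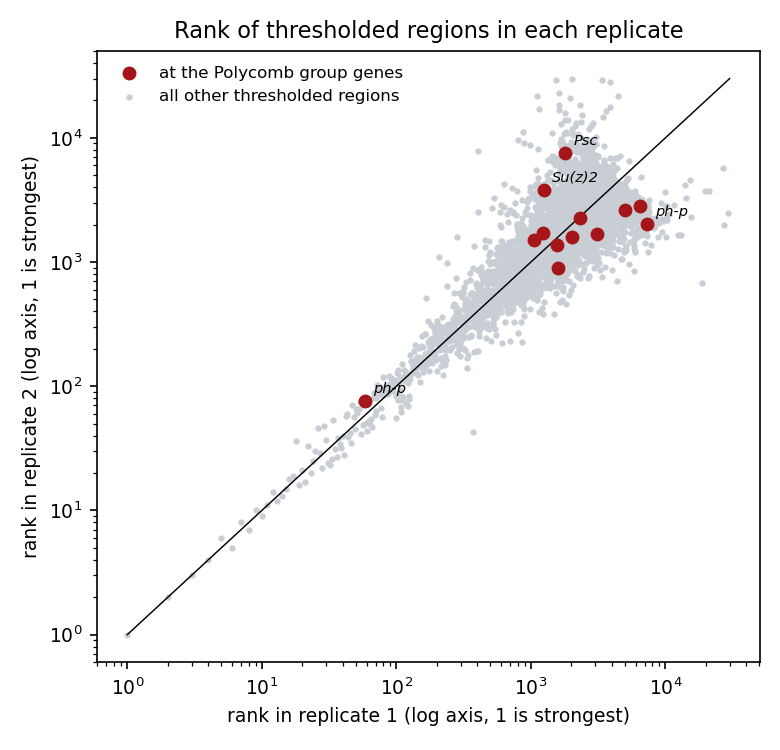
Rank of each thresholded region in replicate 1 (horizontal, log axis) and replicate 2 (vertical, log axis), with regions at the Polycomb group genes in red, all others in grey and the line of equal rank in black; labels name the strongest *ph-p* region and those whose ranks differ over 3-fold. The strongest *ph-p* region lies near the line at ranks 58 and 76, and the intronic *Psc* region lies farthest from it among the red points.

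Motifs of known DNA-binding factors were sought within 50 bp of each summit on both strands. GAGAG, the motif of GAGA factor, a protein found at many Polycomb response elements, was in 2 of 13 summit windows (15.4%), both at *Psc*, with 3 matches at its promoter and 2 in its intron. It was in 15.7% of all thresholded windows. GCCAT, the core of the Pho motif, was in 1 window, the intronic one of *Psc*, against 17.4%. That window was thus the single one of the 13 with both motifs. CGATA (BEAF-32) was in 1 of 13, at *Pc*, against 21.1%, and the E box CAGCTG in 1, in the intron of *ph-p*, against 6.51%.

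Of the remaining motifs, TTTAAA was in 1 window, at *E(z)*, against 11.3% of all thresholded windows. TATCGATA (DRE), which contains CGATA, was in none, against 3.64%, GGTCACACT (motif 1) in none, against 1.7%, CAGGTA (Zelda) in none, against 1.96%, and AAATTT in none, against 9.82%. The median GC content of the summit windows was 45.5% over the 13 regions and 41.6% over all thresholded regions, and the window of the strongest *ph-p* region had 31.7%. With 13 windows, 1 window more or less moves a share by 7.69 percentage points, and a match says nothing of whether a factor bound there.

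The gene starts themselves, from 250 bp upstream to 50 bp downstream of the outermost TSS, held GAGAG in 5 of 10 Polycomb genes, *ph-p*, *ph-d*, *Psc*, *Su(z)2* and *E(z)*, against 29.7% of all protein-coding genes. GCCAT was in 5, *ph-p*, *Psc*, *Sce*, *esc* and *Sfmbt*, against 41.2%. CGATA was in 4, *ph-p*, *Pc*, *pho* and *Sfmbt*, against 47.4%, and TATCGATA in *Sfmbt* alone, against 9.36%. GGTCACACT was in *Sce* alone, against 6.05%, and CAGCTG in *ph-d* alone, against 17.7%. TTTAAA was in 3, against 38.9%, AAATTT in 2, against 33.9%, and CAGGTA in none, against 6.24%. *Sce* thus held GCCAT, GGTCACACT and TTTAAA, and *pho* held CGATA and AAATTT. Several of these motifs are common at the starts of all protein-coding genes, and whether they bear on binding was not tested.

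A further list of 24 Polycomb genes, which encode other core and accessory subunits, partners and related factors, was examined by the same rule. Of these, 13 (54.2%) had a thresholded region, and each of these genes had at least 1 thresholded summit within 1 kb of a TSS, against the same 25.2% of protein-coding genes. The strongest was at *E(Pc)*, a genetic enhancer of *Pc* whose product is a subunit of the Tip60 acetyltransferase complex, 118 bp upstream of its TSS. It had 1340 in replicate 1, 1820 in replicate 2 and 3148 pooled, at ranks 21, 17 and 19, and was the one gene of both lists to exceed *ph-p*. Of the recruiters, the high-mobility-group protein gene *Dsp1* had 356.3 at a summit nearest to the TSS of CG9921, *lolal* had 278.8, *cg* 171.6 and the Sp-family gene *Spps* 107.1. *phol*, the paralogue of *pho*, was below the threshold with a pooled signal of 77.83.

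Among the further PRC2 genes, *Jarid2* had 224.8 at a summit nearest to the TSS of its neighbour *Uch-L5*, and *Su(z)12*, a core subunit, had 168.7. *jing*, which spans 119787 bp, had 131.7 at the strongest of 4 regions, 44676 bp from its nearest TSS. Length was not controlled for the further genes either. *Pcl* and *escl*, the paralogue of *esc*, were below the threshold with pooled signals of 54.58 and 28.66, and the histone-binding subunit *Caf1-55* with 39.46. Of the PRC1 partners, the demethylase gene *Kdm2* had 266.8 and 3 regions, *RYBP* had 158.2, and *Scm* was below the threshold with 64.65. The deubiquitinase gene *calypso* had 130.9 at a summit nearest to the TSSs of CG42837 and *Lipt1*, while its partner *Asx* was below the threshold with 60.45. *mxc* had 135.4 and *l(3)mbt* 115.5, at a summit nearest to CG5934. *Utx*, *corto*, l(3)73Ah and *crm* were below the threshold with 81.08, 75.76, 61.32 and 46.74, and *sxc*, the glycosyltransferase gene, had no region in the pooled list.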

How the data were processed

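The deposited lists hold regions bound in 2 biological replicates of 1 group, with the signal value per region (column 7) given by the authors. Per the labels, chromatin was sonicated and precipitated with an antibody against GFP. Regions were called per replicate and on pooled data, on dm6. The sources used here name neither the aligner nor the peak caller. Summits were assigned to genes with the Ensembl annotation, release 115, without transposable elements, and sequence was read from the RefSeq assembly of Release 6; all summits lay within the arm lengths. Ranks tied in signal share their mean. The 10 genes and the further list of 24 (1 matched by a synonym) were chosen with earlier results of these data known, and the check of 36-base stretches after seeing the data. The text names the 10 genes, every further gene, and neighbours that share a summit or are nearest to one. No test between groups was possible, and shares are descriptions. The counting was tested on simulated data. Python 3.11.15, pandas 2.3.3 and biopython 1.88 were used.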

Additional observations from a re-analysis of the deposited data

How the results depend on the processing

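The counts of genes moved with the threshold and with what counted as at the gene. With the thresholded regions of above-median signal, 5 of the 10 Polycomb genes were found in place of 8, likewise 5 within 1 kb of a TSS, and 8 of the further 24 in place of 13. With summits in the gene body only, 4 of the 10 and 6 of the 24 were found. The strongest pooled regions, 2 times as many, held 8 of the 10 and 19 of the 24. Each replicate alone gave 6 to 8 of the 10, where leaving out replicate 2 lost *Pc* and *E(z)*, and 13 of the 24. Of these further genes, leaving out replicate 2 lost *Spps* and added *Utx*. The same range of 6 to 8 held within 1 kb of a TSS, and among the strongest 4000 relaxed regions, a setting chosen after seeing the data. The other settings gave 7 or 8 of the 10 and 10 to 15 of the 24, and 9 to 12 or the same 13 regions. Shares of all protein-coding genes were not taken under most of these settings, so the counts show no change relative to all genes. In the pooled list that share was 14.8% with the strongest 2000 regions, 25.5% with 4000 and 40.2% with 8000. Windows of 25 bp on each side of the summit held the Pho core, the BEAF-32 motif, the E box and the AT-rich TTTAAA in 0 of 13, against 9.24%, 12.2%, 3.13% and 5.7% of all thresholded summits. Windows of 100 bp held the GAGA factor motif in 5, against 29.5% of all thresholded summits, the Pho core in 2, against 29.5%, the DRE in 1, against 6.28%, and the BEAF-32 motif in 4, against 34.9%. Wider windows hold more matches by their own construction, and the cause was not tested further. No paired analysis was possible because the samples formed 1 group. Signal scale and read depth are unknown, so faint regions, as at *pho*, could not be given an error.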
